A study of Zea mays with 24 samples.

Results

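The ligule is the fringe of epidermal origin that separates the blade of a grass leaf from its sheath. It grows out of the preligule band, a strip of small dividing cells in the epidermis of the upper (adaxial) leaf side. The epidermis of the band was set here against that of the young blade just above it, in 6 of the 24 libraries of the study: 3 of the adaxial L1 (outermost cell layer) of the ligule region and 3 of the adaxial L1 of the blade region. All came from wild-type maize (Zea mays, inbred line B73) at P7, counted in leaf primordia from the shoot apex, and were chosen by their labels alone. Polyadenylated RNA was sequenced from pieces cut by laser microdissection, with 5 to 6 plants pooled in a library. Ligule pieces were 100 µm high and centred on the band, and blade pieces of like size lay 50 µm above it. The 3 adaxial L1 libraries of the sheath region below the band and the all-layers libraries of the same regions, cut through the whole leaf thickness, are used beside them.

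Ligule formation in maize is known from mutants. The liguleless genes lg1 (an SBP-box transcription factor) and lg2 (a bZIP factor) are needed to place the band. Dominant alleles of the KNOX homeobox genes lg3 and lg4, and of kn1, disturb it when those genes are active in the leaf. The MYB gene rs2 keeps KNOX genes off in leaves, PIN proteins carry auxin out of cells, and outgrowth of an organ involves auxin, cytokinin and loosening of the cell wall.

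Totals per library lay between 3.82 and 21.9 (in units of 1e6 counts) in the ligule epidermis and between 9.24 and 32.6 in the blade epidermis. Ligule replicate 1 and blade replicate 2 correlated least with their own groups (mean r of 0.904 and 0.912 across genes) and were kept. Levels are given as normalised CPM (counts per 1e6, scaled by TMM), and genes are compared with each other by FPKM, which is per transcript length. Differences are log2 fold changes of ligule over blade with their standard errors (SE). A gene is called at an adjusted p below 0.05 in the quasi-likelihood test of edgeR, with p-values adjusted over all genes tested by Benjamini and Hochberg's method. Nothing in the labels says that the pooled plants were grown apart, so p-values measure the spread between these libraries.

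The cut pieces carried marks of upper epidermis, but the summed inner tissue markers were not lower in the blade L1 than in all layers of the blade. The 10 epidermis markers found by name (HD-ZIP IV, wax and lipid transfer genes) summed to 11500 to 13500 CPM in ligule and 11000 to 22200 CPM in blade L1 libraries, against 5140 to 5770 and 4240 to 4680 CPM in the all-layers ligule and blade. Most of that sum came from the lipid transfer gene LTP3 (11200 ± 963 CPM in ligule and 13200 ± 5390 CPM in blade L1). The other 9 markers summed to 1310 to 1580 CPM in ligule and 2120 to 3030 CPM in blade L1, against 565 to 631 and 692 to 871 CPM in the all-layers ligule and blade. The wax gene gl8b was not higher in L1 than in all layers of the ligule (33.7 and 38.9 CPM on average), and gl1 had no count in the L1. The 3 adaxial genes rld1, rld2 and lbl1 summed to 1330 to 1420 CPM in ligule and 824 to 1040 CPM in blade. In the all-layers ligule and blade they summed to 774 to 1020 and 627 to 761 CPM. Of these, rld1 was not higher in L1 than in all layers of the blade (199 and 212 CPM on average). The 6 abaxial markers summed to at most 0.176 CPM in ligule and 4.01 CPM in blade, against at least 27.4 and 28.4 CPM in the all-layers ligule and blade, and kan1 and kan3 were at 0. Of 6 inner tissue markers, sut1, pep1 and Ppdk1 were at 0 in both groups, but pep1 had no count in all layers either. Over the all-layers ligule and blade sut1 had 92 and 7 counts and Ppdk1 had 1455 and 44. The marker me3 was not lower in L1 than in all layers of the ligule (6.49 ± 5.13 and 5 CPM). In the blade it averaged 1.27 CPM in L1 and 3.73 CPM in all layers. For ssu1 the L1 ligule and blade averaged 0 and 1.5 CPM, against 17.2 and 8.55 CPM in all layers. The list summed to 79.7 to 122 CPM in ligule and 176 to 310 CPM in blade, most of it from SCR. In the all-layers ligule and blade it summed to 130 to 233 and 235 to 241 CPM. SCR, a GRAS factor of ground tissue in roots, stood at 101 ± 19 CPM in ligule and 231 CPM on average in blade. It averaged 143 and 226 CPM in the all-layers ligule and blade. Its part in the results was not tested. CPM of L1 and of all-layers libraries were scaled separately.

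Of 18761 genes tested, 423 were higher and 793 were lower in the ligule epidermis, which is 6.48% of the genes (2.25% higher and 4.23% lower). A fitted change of at least 2-fold was reached by 395 of the higher and 716 of the lower genes. Among the higher genes 23 had no count in the blade, and among the lower genes 59 had none in the ligule. Among the 1562 tested genes that carry a name the share called was 12.8% (64 higher and 136 lower). The gene lists below hold only named genes, so this share is the nearer background for them. The 3 ligule and 3 blade libraries did not overlap in 26.5% of all tested genes. The share of higher genes among the calls was 34.8%, but 45.8% with limma on log2(FPKM + 1), a scale that moved the median of all genes by 0.11 (559 higher and 662 lower). Without ligule replicate 1 and blade replicate 2, left out together after their correlations were seen, 317 genes were higher and 545 lower.

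**Figure D1:**
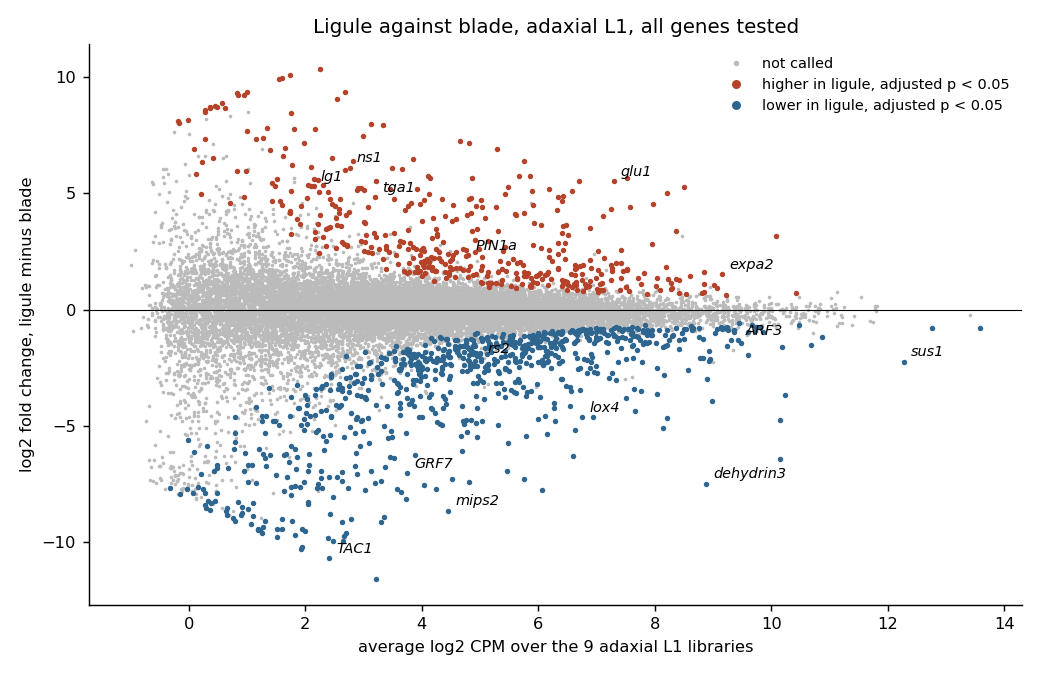
Log2 fold change of ligule over blade (y axis) against the average log2 CPM over the 9 adaxial L1 libraries (x axis), 1 point per gene tested. The 423 genes called higher are red and the 793 called lower are blue. Values of genes with no count in 1 of the groups are fitted and are not bounds.

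Transcripts of lg1 and of some other regulators of the ligule and boundary list were higher in the ligule epidermis. The gene lg1 (GRMZM2G036297) had 18, 9.32 and 9.5 CPM in the ligule libraries and 0.284, 0.123 and 0.476 CPM in the blade libraries. The groups did not overlap, and the log2 fold change was 5.29 (SE 0.84, adjusted p = 0.0017). A related SBP-box gene, tga1 (GRMZM2G101511), known for hardened glumes in teosinte, had 25.4, 21.3 and 19 CPM in ligule and 0.569, 0.123 and 1.5 CPM in blade (4.84, SE 0.72, adjusted p = 0.001). The WOX homeobox gene ns1 (GRMZM2G069028), which recruits cells at leaf margins, had 28.4, 12.5 and 18.3 CPM in ligule, while in blade it had 0.663 CPM in replicate 1 and no count in replicates 2 and 3 (6.10, SE 1.12, adjusted p = 0.0069). Its call was lost without the pair of libraries that stood apart.

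The auxin exporter gene PIN1a (GRMZM2G098643) had 73.5, 60.4 and 62.7 CPM in ligule, against 17.7, 11.1 and 9.58 CPM in blade (2.35, SE 0.40, adjusted p = 0.0026). Its relative PIN1d (GRMZM2G171702) had 133, 174 and 129 CPM in ligule, against 55.8, 16.5 and 56.1 CPM in blade (1.75, SE 0.37, adjusted p = 0.011, not called without ligule replicate 2). Both exporters were thus higher in every ligule library than in any blade library. Over all tested genes the groups did not overlap in 26.5%.

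Other members of the same list were lower in the band. The KNOX repressor gene rs2 (GRMZM2G403620) had 12.1, 11.3 and 8.75 CPM in ligule and 57.1, 42.8 and 38.1 CPM in blade (-2.11, SE 0.32, adjusted p = 0.0012). The LOB domain gene IG1 (GRMZM2G118250) had 68.2, 58.1 and 67.2 CPM in ligule and 253, 135 and 522 CPM in blade (-2.23, SE 0.41, adjusted p = 0.0045). Also lower was ub2 (GRMZM2G160917), an SBP-box gene known from tassel branching, with 7.84, 5.15 and 13.1 CPM in ligule and 33, 52.8 and 23.6 CPM in blade (-2.03, SE 0.41, adjusted p = 0.0084, not called without the pair of libraries that stood apart). For all 3 genes each ligule library lay below each blade library, where groups of 26.5% of all tested genes did not overlap. In CPM the blade libraries, which lay at the higher level, spread more widely. Spread relative to the level was not compared.

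Smaller or less steady falls were found for lgn, DLF1 and D8. The kinase gene lgn (GRMZM2G134382), whose mutant has a reduced ligule, averaged 4.84 ± 1.11 CPM in ligule and 17.6 ± 5.24 CPM in blade (SD, n = 3 libraries each). Its log2 fold change was -1.84 (SE 0.42, adjusted p = 0.018), and its call was lost without ligule replicate 1 or 2 or blade replicate 2 or 3, or without the pair of libraries that stood apart. The bZIP gene DLF1 (GRMZM2G067921), of flowering time, had 10.5 ± 3.47 CPM in ligule and 24.7 ± 2.25 CPM in blade (-1.26, adjusted p = 0.047). The DELLA gene D8 (GRMZM2G144744), a repressor of gibberellin response, had 132 ± 17.9 CPM in ligule and 211 ± 19 CPM in blade (-0.68, adjusted p = 0.048). DLF1 lost its call under 15 of 19 alternatives and D8 under 16. Leaving out any 1 of the 9 L1 libraries was enough for D8, and any but ligule replicate 2 for DLF1.

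**Figure D2:**
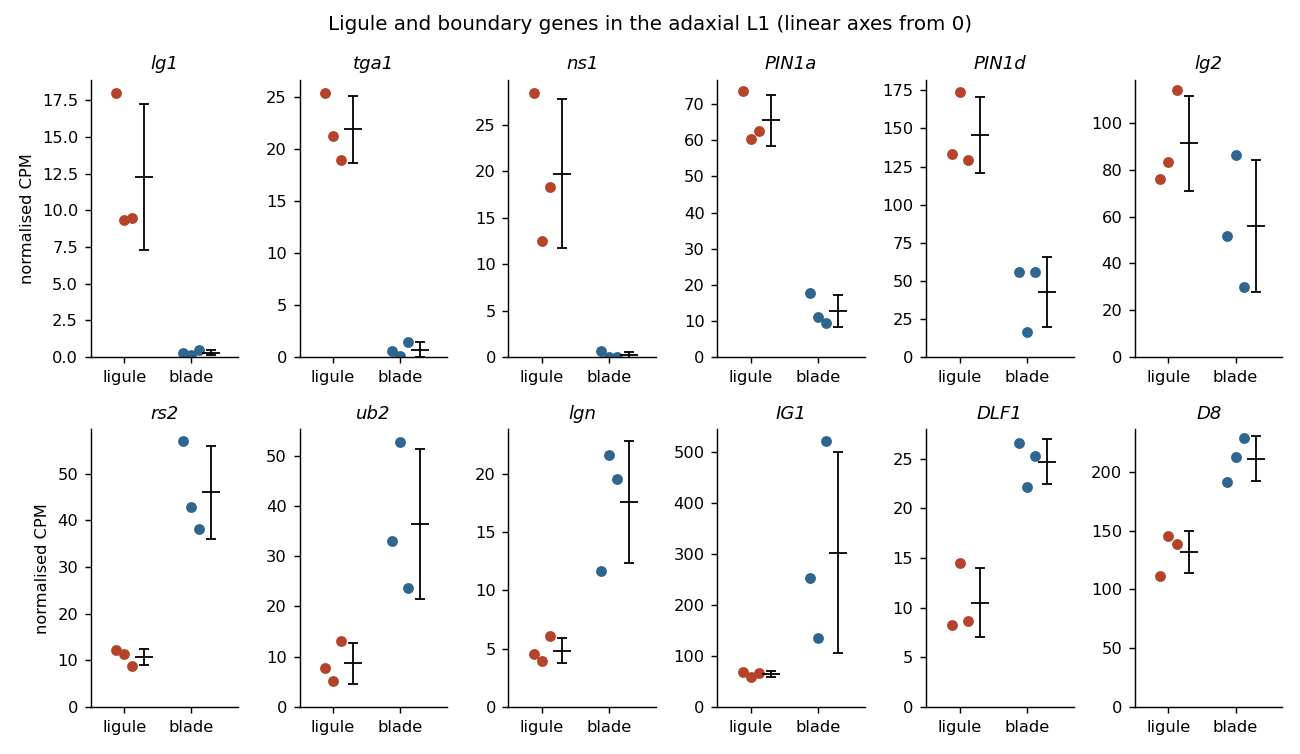
Normalised CPM (y axis, from 0) of 12 ligule and boundary genes in each of the 3 ligule (red) and 3 blade (blue) libraries of the adaxial L1, with mean and SD as black bars. Libraries of lg2 overlap between the groups. Those of the other 11 genes, which were picked because they were called, do not. Over all tested genes the groups did not overlap in 26.5%.

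The remaining liguleless and KNOX genes gave no call. The gene lg2 (GRMZM2G060216) had 76.2, 83.2 and 114 CPM in ligule and 51.6, 86.1 and 30 CPM in blade, so the groups overlapped (0.71, SE 0.36, adjusted p = 0.33). The gene lg3 (GRMZM2G087741) had 4.27 CPM in ligule replicate 1 and 8.37 CPM in blade replicate 1 and no count in the other 4 libraries (-0.96, SE 2.1, adjusted p = 0.88). Blade replicate 1 also held most counts of kn1 (GRMZM2G017087), with 1.66, 0 and 0.22 CPM in ligule and 14.6, 2.96 and 0 CPM in blade (-3.14, SE 1.66, adjusted p = 0.37). The same library had 3 CPM of the abaxial gene mwp1, which was at 0 in the other 5 libraries. A source of these counts was not tested. No count of lg4 (GRMZM2G094241) was found in either group.

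In all, 25 of the 37 ligule and boundary genes passed the filter on low counts, of which 5 were called higher and 6 lower. The share called was 6.48% over all genes and 12.8% over named genes, and the list was drawn up with results of these data known. The median log2 fold change of the tested members was -0.66, against 0 over all genes. Without the pair of libraries that stood apart it was 0.53, with 4 higher and 2 lower. There 27 members passed the filter, so the 2 medians are not over the same genes. With any 1 of the 9 L1 libraries left out, 4 to 6 members were higher and 3 to 4 lower.

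Most genes of the wider SBP-box family gave no call. Of 21 tested members 3 were higher (lg1, tga1 and sbp23) and 1, ub2, was lower, with a median of 0.19. Of named genes 12.8% were called. The calls of lg1, tga1 and ub2 are also counted in the ligule and boundary list. The gene sbp23 (GRMZM2G126018) had 22.6, 24.8 and 30.7 CPM in ligule and 4.71, 6.29 and 1.83 CPM in blade (2.61, SE 0.48, adjusted p = 0.005).

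Genes of auxin transport and response changed in both directions. Of 33 tested members 8 were higher, PIN1a and PIN1d among them, and 3 lower (median 0.30), against 2.25% higher and 4.23% lower over all genes. Among the 1562 named genes 64 were higher and 136 lower. With 1 library left out, 5 to 8 auxin genes were higher and 1 to 3 lower, fewest without ligule replicate 2. The auxin response factor gene ARF23 (GRMZM2G441325) had 57.1, 44.4 and 21.6 CPM in ligule, against 4.64, 2.1 and 1.16 CPM in blade (3.92, SE 0.63, adjusted p = 0.0018). ARF18 (GRMZM2G035405) had 84.4, 141 and 189 CPM in ligule and 32.9, 29.4 and 36 CPM in blade (2.07, SE 0.29, adjusted p = 0.00067). The opposite was seen for ARF3 (GRMZM2G078274), a factor of leaf polarity in Arabidopsis, with 352, 502 and 465 CPM in ligule and 1200, 898 and 1210 CPM in blade (-1.32, SE 0.20, adjusted p = 0.0011). None of these 3 calls was lost under any of the 19 alternatives.

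Of 19 tested cytokinin genes 2 were higher and none lower (median 0.49), where 12.8% of all named genes were called. An unadjusted p below 0.05 in the edgeR test was reached by 5 members, and by 3338 of all 18761 genes tested. DESeq2 called 3 members higher and none lower, and over all genes it called 694 higher and 1263 lower. The response regulator gene RR6 (GRMZM2G129954) had 9.67, 25.8 and 25.3 CPM in ligule and 3.79, 1.6 and 2.51 CPM in blade (2.91, SE 0.57, adjusted p = 0.0071, not called without ligule replicate 2). The receptor gene hk2 was called at an adjusted p of 0.04 and lost its call under 9 alternatives, among them each ligule library, blade replicates 1 and 3 and sheath replicate 3 left out.

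Of 15 tested members of the jasmonate and lipoxygenase list 4 were lower and 2 higher (median -0.60), while over all genes 793 of the 1216 calls were lower. Named genes had a share called of 12.8%. The higher members were TIFY12 and aos1, and neither was called without blade replicate 3 or ligule replicate 3. Lipoxygenases oxidise fatty acids, and allene oxide cyclase makes the ring of the jasmonate precursor. The lipoxygenase gene lox4 (GRMZM2G109056) had 9.59, 6.38 and 4.62 CPM in ligule and 150, 176 and 179 CPM in blade (-4.62, SE 0.32, adjusted p = 4.8e-06). Its relative lox5 (GRMZM2G102760) had 146, 96.2 and 111 CPM in ligule and 490, 515 and 497 CPM in blade (-2.08, SE 0.24, adjusted p = 0.00016). The allene oxide cyclase gene aoc1 (GRMZM2G077316) had 17.1, 14.2 and 14.3 CPM in ligule and 57.4, 69.5 and 60.6 CPM in blade (-2.04, SE 0.26, adjusted p = 0.00036). These 3 falls held under all 19 alternatives.

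Of 21 tested abscisic acid and dehydration genes 5 were lower and 2 higher (median -0.07), where 12.8% of named genes were called. The gene dehydrin3 (GRMZM2G373522), of a protein family made when cells lose water, had 5.32, 4.66 and 7.48 CPM in ligule, against 1080, 1210 and 915 CPM in blade. Its log2 fold change was -7.48 (SE 0.27, adjusted p = 5.5e-09), and the sheath epidermis had 336 ± 27 CPM. PMP3 (GRMZM2G477325), a small membrane protein gene, had 28.6, 8.59 and 15.7 CPM in ligule and 392, 527 and 449 CPM in blade (-4.66, SE 0.47, adjusted p = 6e-05). Identifiers named PYL3, an abscisic acid receptor, were nearly absent from the ligule. GRMZM2G154987 had 2 counts over the ligule libraries and 445 over the blade libraries (blade over ligule 156, 95% interval of counting error alone 43 to 1300). The higher members were SnRK2.11 and another dehydrin gene, dhn1. Transcripts of dhn1 (GRMZM2G079440) stood at 0.871, 1.72 and 4.05 CPM in ligule with no count in blade, which is at least 51.7-fold higher against a floor of 3 counts over the group. Its call (adjusted p = 0.045) was lost under 11 alternatives, among them each ligule and each blade library left out. The ethylene gene acco20 (GRMZM2G126732), for an oxidase of the last synthesis step, had 1.31, 4.66 and 8.58 CPM in ligule and 137, 146 and 111 CPM in blade (-4.72, SE 0.55, adjusted p = 0.00015).

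Growth-regulating factor genes (GRF) and their coactivator, which promote cell division in leaves, were lower where called, with 1 exception. Of 26 tested members of the growth list, which also holds TCP and CNR genes, 5 were lower and 2 higher (median -0.55). The share called over named genes was 12.8%. GRF7 (GRMZM5G850129) had no count in ligule replicates 1 and 2 and 0.264 CPM in replicate 3, against 21.3, 11.7 and 25.1 CPM in blade (-7.04, SE 0.76, adjusted p = 0.0001). GRF11 (GRMZM2G067743) had 1.83, 1.23 and 1.32 CPM in ligule and 23.2, 25.3 and 22.5 CPM in blade (-4.0, SE 0.49, adjusted p = 0.00026). The coactivator gene GIF1 (GRMZM2G180246) had 83, 42.9 and 76.8 CPM in ligule and 420, 261 and 288 CPM in blade (-2.25, SE 0.31, adjusted p = 0.00054). GRF3 and GRF12 were lower too, while GRF13 was higher (2.27, SE 0.49, adjusted p = 0.012). The TCP gene TCP5 (GRMZM2G115516) rose, with 22.2, 39 and 47.9 CPM in ligule and 4.08, 3.7 and 6.86 CPM in blade (2.89, SE 0.44, adjusted p = 0.0012). Of 24 cell cycle genes 1, cycD2, was lower and none higher (median 0.19). DESeq2 called 3 of this list higher and 1 lower, and limma on log2(FPKM + 1) called 2 higher and none lower. Over all genes DESeq2 called 694 higher and 1263 lower, and that limma fit 559 higher and 662 lower. The call of cycD2 was lost under 8 alternatives, among them each ligule library and blade replicate 2 left out. Of 32 ribosomal protein genes 1 was lower and none higher (median -0.13). An unadjusted p below 0.05 was reached by 7 and 6 members of those lists, and by 3338 of the 18761 genes tested. For the edgeR calls of both lists the share called over named genes, 12.8%, is the background.

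**Figure D3:**
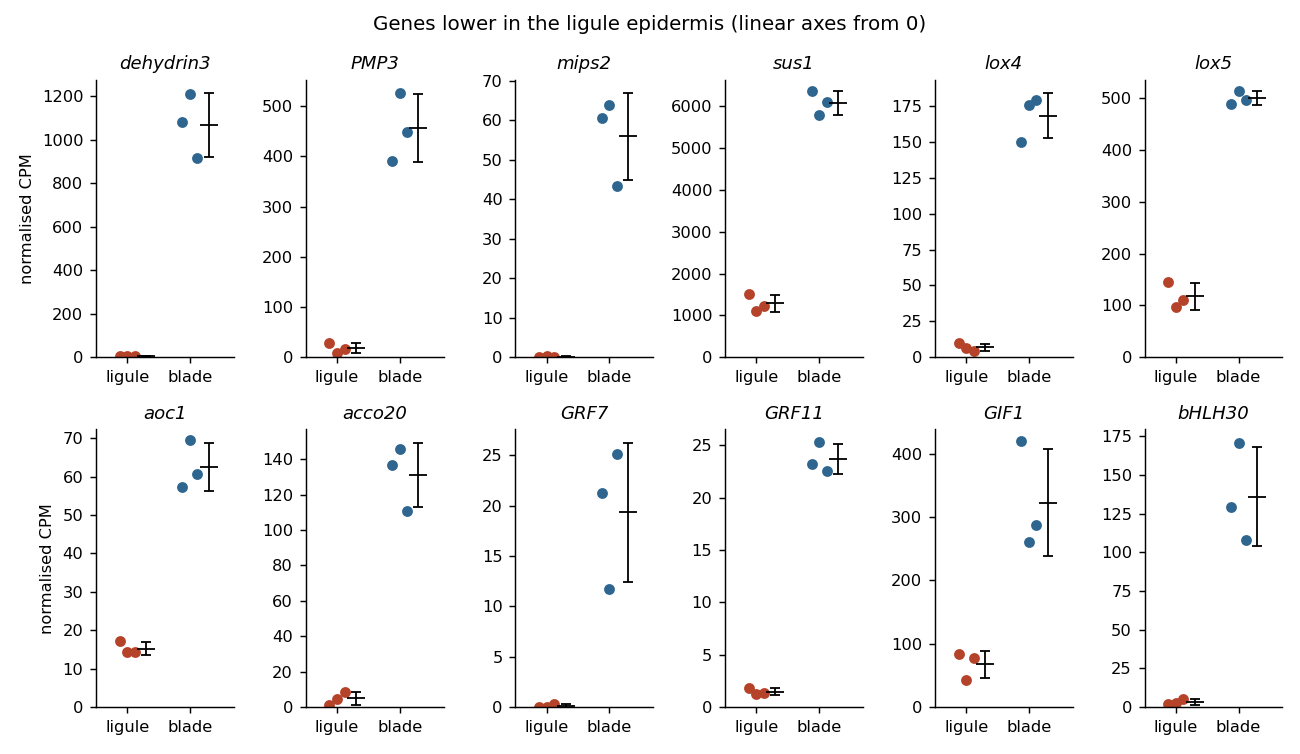
Normalised CPM (y axis, from 0) of 12 genes lower in the ligule, in each of the 3 ligule (red) and 3 blade (blue) libraries of the adaxial L1, with mean and SD as black bars. For dehydrin3 the ligule libraries lie at 4.66 to 7.48 CPM and the blade libraries at 915 to 1210 CPM.

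Of 5 tested cell wall loosening genes 3, all expansins, were higher and none lower (median 1.53), against 2.25% higher over all genes. Among the 1562 named genes 64 were higher. EXPA5 (GRMZM2G361064) had 58.6, 65.3 and 76.2 CPM in ligule and 13.4, 11.1 and 8.77 CPM in blade (2.59, SE 0.37, adjusted p = 0.00079). The more abundant expa2 (GRMZM2G105844) had 1230, 927 and 1130 CPM in ligule and 417, 368 and 354 CPM in blade (1.53, SE 0.25, adjusted p = 0.0022). The remaining one, expB8, lost its call without blade replicate 1 or 3 or ligule replicate 1 or 3. Only 5 of 18 members of this list passed the filter on low counts, and 11 had no count in either group. Of 9 cell wall synthesis genes 2, CesA-7 and CslF6-1, were lower and none higher (median -0.89), where 12.8% of named genes were called. The calls of CesA-7 and CslF6-1 were lost under 10 and 8 alternatives. No member was called with limma on FPKM, without ligule replicate 2 or 3, or without the pair of libraries that stood apart.

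Starch and sugar genes had 3 of 11 tested members lower and none higher (median -1.29), against 4.23% lower over all genes. Among the 1562 named genes 136 were lower. The sucrose synthase gene sus1 (GRMZM2G152908) had 1520, 1110 and 1230 CPM in ligule and 6360, 5780 and 6090 CPM in blade (-2.24, SE 0.20, adjusted p = 2.8e-05). The inositol phosphate synthase gene mips2 (GRMZM2G004528) had 0.0871, 0.245 and 0.132 CPM in ligule and 60.4, 63.9 and 43.4 CPM in blade (-8.63, SE 0.56, adjusted p = 3.2e-06). The starch synthase gene wx1 (GRMZM2G024993) had no count in ligule and 2.84, 9.87 and 1.63 CPM in blade, which is at least 45.5-fold lower against a floor of 3 counts over the group. Its call (adjusted p = 0.026) was lost under 8 alternatives, including each ligule library and blade replicates 1 and 2 left out.

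Epidermal identity genes of the HD-ZIP IV family were lower or not called. All 7 had negative log2 fold changes (median -0.90) and 3 were called. Over all genes 9333 of 18761 log2 fold changes were positive, and 12.8% of named genes were called. The call of HDZIV8_OCL8 (-0.82, adjusted p = 0.042) was lost under 13 of 19 alternatives. The gene ocl1 (GRMZM2G026643), expressed in the outer cell layer, had 169, 145 and 235 CPM in ligule and 463, 390 and 480 CPM in blade (-1.28, SE 0.21, adjusted p = 0.0022). For ocl3 (GRMZM2G116658) the values were 95.7, 89.5 and 161 CPM in ligule and 320, 463 and 291 CPM in blade (-1.63, SE 0.27, adjusted p = 0.0022). AD1 (GRMZM2G167438), a wax synthesis gene whose mutant has fused organs, had 38, 33.1 and 42.1 CPM in ligule and 105, 111 and 142 CPM in blade (-1.66, SE 0.23, adjusted p = 0.00071). Of the epidermis markers above, LTP3 overlapped between the groups, while the sum of the other 9 was lower in every ligule library than in any blade library. The call of gl15, a factor of juvenile leaf epidermis, ran the other way (287 ± 67.3 CPM in ligule and 114 ± 53 CPM in blade, adjusted p = 0.023) and was lost under 5 alternatives, including blade replicate 1 or 2 or ligule replicate 2 or 3 left out.

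Other transcription factor genes that rose strongly belonged to several families. Of 29 tested bHLH genes 6 were higher and 4 lower (median 0.02), where 12.8% of named genes were called. The gene bHLH165 (GRMZM2G145579) had 176, 204 and 266 CPM in ligule and 5.37, 13.5 and 3.74 CPM in blade (4.88, SE 0.46, adjusted p = 3.9e-05). The opposite held for bHLH30 (GRMZM2G036092), with 1.66, 2.7 and 5.19 CPM in ligule and 129, 171 and 108 CPM in blade (-5.35, SE 0.45, adjusted p = 1.6e-05). MADS34 (GRMZM2G137510), a MADS-box gene, had 12.5, 8.83 and 15.4 CPM in ligule and 0.979, 0.37 and 0.408 CPM in blade (4.30, SE 0.67, adjusted p = 0.0014). EREB208 (GRMZM2G160971), of the ethylene response factor family, had 62.7, 91 and 93.1 CPM in ligule and 2.78, 11.4 and 2.58 CPM in blade (3.94, SE 0.53, adjusted p = 0.0005). NAC61 (GRMZM2G003715) had 34.2, 45.1 and 45.3 CPM in ligule and 7.04, 8.02 and 7.68 CPM in blade (2.46, SE 0.36, adjusted p = 0.00086).

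**Figure D4:**
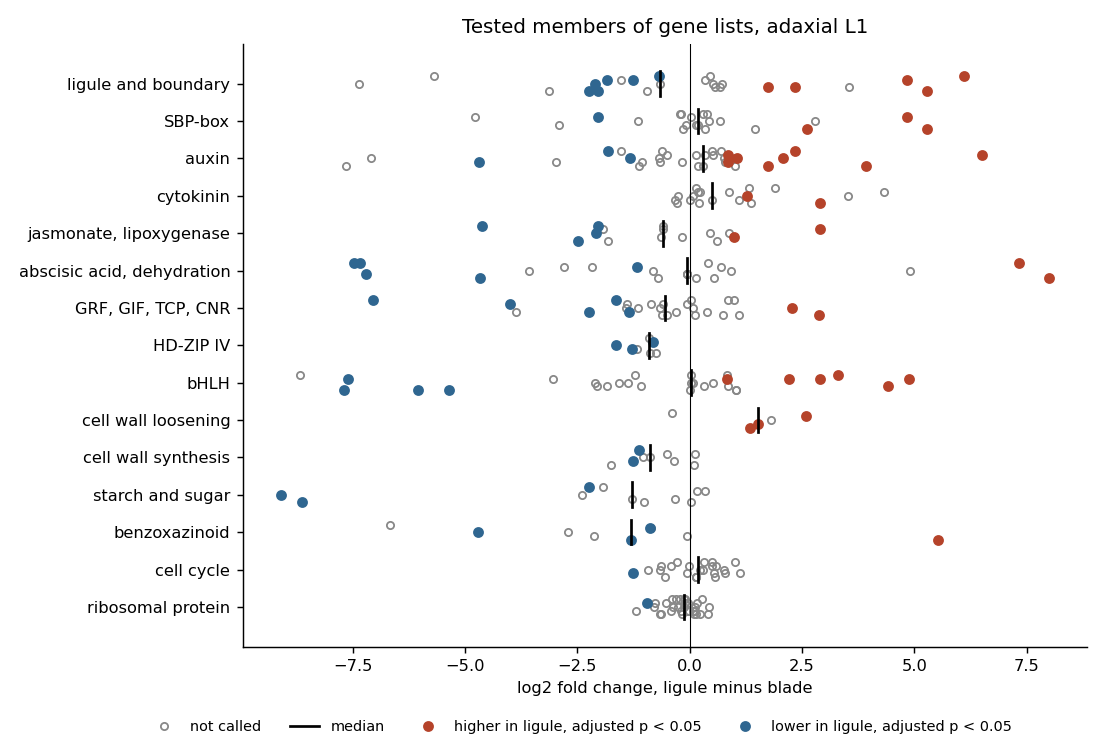
Log2 fold change of ligule over blade (x axis) of the tested members of 15 gene lists (rows), 1 point per gene, with called genes filled and the list median as a black bar. Expansins lie on the right. Medians left of 0 are those of benzoxazinoid (-1.31), starch and sugar (-1.29), HD-ZIP IV (-0.90), cell wall synthesis (-0.89) and ligule and boundary (-0.66) genes. So are those of jasmonate (-0.60), growth (-0.55), ribosomal protein (-0.13) and abscisic acid (-0.07) genes. Values of genes with no count in 1 group are fitted and are not bounds.

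Among defence genes, the beta-glucosidase gene glu1 (GRMZM2G016890), whose enzyme frees benzoxazinoid toxins from their sugar, had 344, 314 and 681 CPM in ligule and 10.4, 16.8 and 2.45 CPM in blade (5.52, SE 0.90, adjusted p = 0.0033). Of the 9 tested members of its list, glu1 was higher, the benzoxazinoid synthesis genes BX4, bx8 and bx9 were lower, and 5 were not called. Over named genes the share called was 12.8%. The call of bx8 was lost under 12 alternatives and that of bx9 under 3, including ligule replicate 1 left out. BX4 (GRMZM2G172491) had 0.0871, 0 and 0.792 CPM in ligule and 14.1, 10.2 and 6.12 CPM in blade (-4.71, SE 0.85, adjusted p = 0.0043). Per transcript length, glu1 (884 ± 401 FPKM in ligule, 17.4 ± 12 FPKM in blade) and expa2 (721 ± 84.2 FPKM in ligule, 227 ± 27.3 FPKM in blade) had the highest ligule levels of the named genes that rose. At 8.70 ± 3.29 FPKM in ligule and 0.194 ± 0.122 FPKM in blade, lg1 was far less abundant.

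The sheath epidermis below the band was not part of the contrast and is described without a test. Of the 423 genes higher in the ligule, the sheath mean was at or above the ligule mean for 59, between ligule and blade for 287, and at or below the blade for 77. Of the 793 lower genes it was at or below the ligule for 25, in between for 549, and at or above the blade for 219. The genes lg1, ns1 and PIN1a were low in sheath as in blade (0.413 ± 0.213, 0 and 4.24 ± 2.24 CPM). By contrast, the silicon transporter gene Lsi6 (GRMZM2G081239) had 11.5 ± 1.66 CPM in ligule, 0.342 ± 0.261 CPM in blade and 73.9 ± 19.6 CPM in sheath. The YABBY gene yabby15 (GRMZM2G529859) had 127 ± 51.7 CPM in ligule, 39.4 ± 6 CPM in blade and 382 ± 67.6 CPM in sheath.

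Whether the epidermal difference was also that of the whole leaf thickness was tested as the ligule minus blade difference in the adaxial L1 minus that in all layers, over 18 libraries. Of 22334 genes tested, 59 had a higher and 355 a lower difference in the L1, which is 1.85% of the genes. In bulk pieces, fewer cells of a type and less RNA per cell cannot be told apart. The gene dehydrin3 was abundant in all layers of both regions. All-layers ligule had 706, 1090 and 963 CPM of it and all-layers blade 1480, 1160 and 1040 CPM, with a log2 fold change of -0.41 (SE 0.32), so the L1 difference was lower by 7.12 (SE 0.44, adjusted p = 3.9e-09).

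The KNOX repressor gene rs2 was not called in all layers (adjusted p = 0.86), with 53.6, 62.2 and 41.4 CPM in ligule and 51.5, 70.4 and 49.4 CPM in blade (-0.12, SE 0.23). The difference between tissues was -2.05 (SE 0.37, adjusted p = 0.0036) and was called under every alternative run. So were those of mips2 (-6.36), GRF7 (-5.13), GRF11 (-2.77), acco20 (-3.05), BX4 (-5.20) and GRAS19 (-3.50). The last, a GRAS family gene (GRMZM2G172657), had 2.96, 2.45 and 7.83 CPM in ligule L1 and 63.9, 93.2 and 31.9 CPM in blade L1, but 78.5, 85 and 91 CPM in all-layers ligule and 114, 95.7 and 98.4 CPM in all-layers blade. The gene TAC1 (GRMZM2G447987), named for a tiller angle gene of rice, had no count in ligule L1 and 6.32, 22.1 and 14.4 CPM in blade L1. That is at least 138-fold lower in the ligule epidermis, whereas all-layers ligule averaged 9.55 ± 4.3 CPM and all-layers blade 13.9 ± 4.49 CPM.

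In the other direction, PIN1a, ARF23 and TCP5 were higher in the epidermis of the band and were not called in all layers. PIN1a had 36.2, 73 and 121 CPM in all-layers ligule and 54.5, 112 and 95.1 CPM in all-layers blade, and the difference between tissues was 2.47 (SE 0.61, adjusted p = 0.036). That call was lost without any 1 of 9 libraries, namely L1 blade replicate 2 or 3, any L1 ligule replicate, all-layers blade replicate 4 or 5 or all-layers ligule replicate 3 or 4, and under the replicate block. ARF23 (3.08, SE 0.67, adjusted p = 0.016) lost its call without all-layers blade replicate 5 or ligule replicate 3, and TCP5 (2.45, SE 0.59, adjusted p = 0.031) without L1 blade replicate 1 or 2, L1 ligule replicate 2 or 3, any all-layers blade replicate or all-layers ligule replicate 3 or 5. For lg1 the fold changes were 5.29 in L1 and 6.65 in all layers, with a difference of -1.35 (SE 1.21, adjusted p = 0.81), and for tga1 4.84 and 5.05 (-0.28, SE 0.90, adjusted p = 0.99). Those p-values do not show that the layers are alike.

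**Figure D5:**
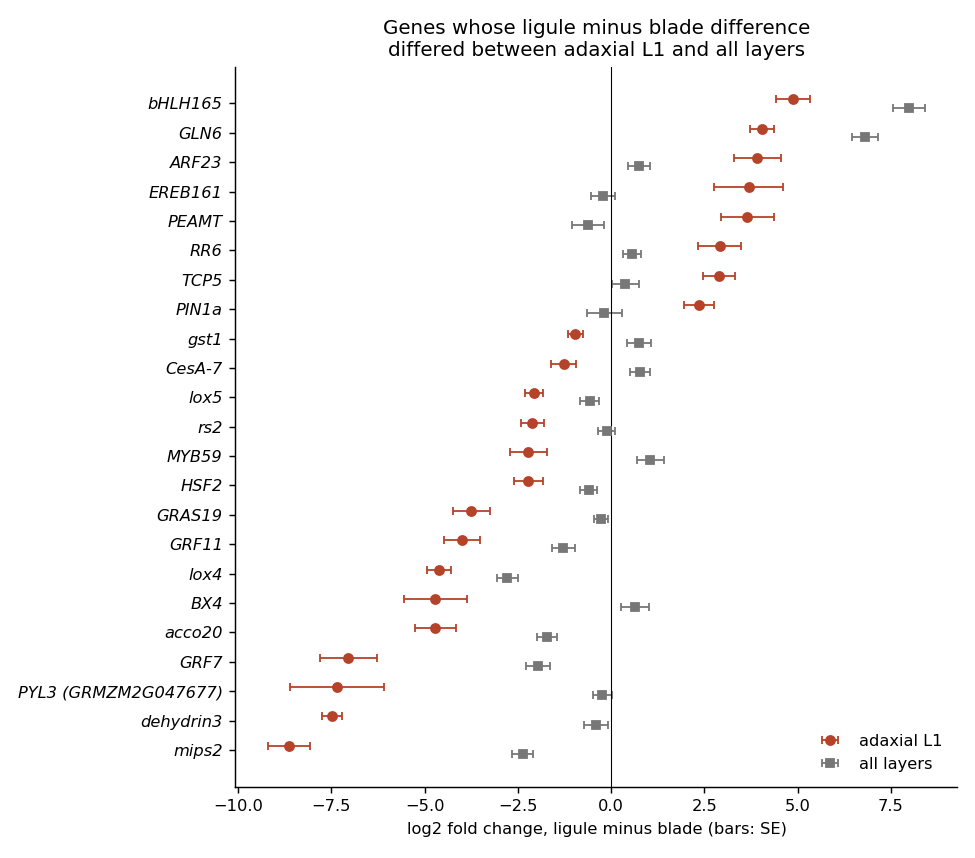
Log2 fold change of ligule over blade with its SE (x axis) in the adaxial L1 (red circles) and in all layers (grey squares). The 23 genes shown were named by rule, and their difference between the tissues was called. At dehydrin3 the L1 value is -7.48 and the all-layers value -0.41. At bHLH165 and GLN6 the all-layers value is the larger, with only 10 and 22 counts over the all-layers blade libraries.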

How the data were processed

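Polyadenylated RNA of laser-microdissected pieces was amplified in a kit of 2 rounds, per the labels' protocols. Expected counts (estimated, not all whole) and FPKM values of 109715 gene identifiers were deposited by the authors. The submitters' processing notes name TopHat2 2.0.10 and Cuffdiff 2.1.1, with no role. The sources used here state neither genome build nor annotation nor strandedness, so no coordinates or sequences are printed, and near-identical or overlapping genes share uncertain counts. Gene names were looked up in RefSeq's gene table (assembly Zm-B73-REFERENCE-NAM-5.0), where 18259 identifiers matched 1 locus. Lists were built from those names.

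Counts were rounded. edgeR 4.0.16 (quasi-likelihood, robust, TMM, filterByExpr with smallest count 10 and total 15) was fitted in R 4.3.3 to the 9 adaxial L1 libraries, and to 18 P7 libraries for the difference between tissues. In a ligule or blade L1 library, 3 counts (the floor) are 0.0922 to 0.786 CPM. Intervals and floors cover counting error only. Replicate pairs of the L1 differed by more than counting error (chi-square per degree of freedom 11.6 to 73.8). The edgeR fit was also run on simulated data, with the outcome not reported here. Figures used matplotlib 3.10.9.

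Genes were named by rule: called members of the ligule and boundary list with lg1, lg2, lg3, lg4, kn1 and rs2; the 15 most changed named genes in each direction whose average log2 CPM was 3 or more and whose groups did not overlap; up to 3 called members of each of 42 lists; and up to 6 per direction for the difference between tissues. Of these, mostly those with steady calls are described singly, and mwp1, GRF3, GRF12, GRF13, bx8, dhn1, SnRK2.11, TIFY12, aos1 and the remaining epidermis markers were added after their values were seen. The members and lists were chosen with earlier results of these data known. As alternatives, RLE size factors, DESeq2 1.42.0, an unfiltered fit, limma 3.58.1 on log2(FPKM + 1) or log2(FPKM + 0.1), a replicate block, fits of 6 or 24 libraries, and leaving out each library were tried.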

Additional observations from a re-analysis of the deposited data

Results flagged for a closer look

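The ligule minus blade difference of 27 genes named by rule differed between the adaxial L1 and all layers. Calls came from the edgeR test, at an adjusted p below 0.05, of that difference (L1 minus all layers, log2 scale). It was lower in the L1 for TAC1 (-10.86), ssu1 (-9.21), IAA12 (-8.73), CAD2 (-8.54), PYL3 (GRMZM2G047677, -7.20), dehydrin3 (-7.12), mips2 (-6.36), BX4 (-5.20), GRF7 (-5.13), GRAS19 (-3.50), MYB59 (-3.32), bHLH165 (-3.11), acco20 (-3.05), GLN6 (-2.82), GRF11 (-2.77), CesA-7 (-2.09), rs2 (-2.05), lox4 (-1.90), gst1 (-1.76), HSF2 (-1.69) and lox5 (-1.56). It was higher for PEAMT (4.27), EREB161 (3.75), ARF23 (3.08), PIN1a (2.47), TCP5 (2.45) and RR6 (2.27). TAC1, ssu1, IAA12 and CAD2 had no count in the L1 ligule, so their fitted differences are not bounds. The genes ssu1 (chloroplast carbon fixation), IAA12 and CAD2 were low in the L1 blade as well, at 1.5, 1.28 and 1.42 CPM, against 17.2, 119 and 89.5 CPM in the all-layers ligule and 8.55, 80.6 and 73.9 CPM in the all-layers blade. Those of bHLH165 and GLN6 rest on few counts over the all-layers blade libraries (10 and 22). Of the 27 calls, 12 were kept under every alternative run. Genes named by rule were picked mostly by an L1 call or by this very difference, so their number and directions follow the picking. Over all 22334 genes tested 1.85% were called, 59 higher and 355 lower. Groups of 3 libraries are too small for a test of single outlying libraries.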

How the results depend on the processing

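The counts of 423 higher and 793 lower genes became 694 and 1263 with DESeq2, 1123 and 2372 when all 24 libraries were fitted, 624 and 1262 without the filter on low counts, and 436 and 521 with limma on log2(FPKM + 1) without a filter. With 1 library left out they ranged from 257 to 443 and from 449 to 781, lowest without ligule replicate 2 (257 and 449), the shallowest library, or ligule replicate 3 (257 and 504); without blade replicate 1, 275 were higher. The 414 calls for the difference between tissues became 821 with DESeq2, 707 with 24 libraries and 974 with no filter, and ranged from 241 to 399 with 1 library left out, lowest without all-layers blade replicate 4 (241), 5 (250) or 3 (251). The cause was not tested. The replicate block gave 346 higher and 673 lower genes. Same-numbered libraries of different regions correlated between -0.0568 and 0.0484 in their deviations, so the numbers were not taken to pair them. Of the 94 genes named by rule and tested, 51 kept direction and call under every alternative. The sign of lg3 turned once, to 7.14 without blade replicate 1, and its value was -8.39 without ligule replicate 1 and -9.06 without the pair of libraries that stood apart (never called), and that of the bHLH165 difference between tissues turned with limma on log2(FPKM + 1) (0.60, not called); the cause was not tested. Over single libraries left out, cytokinin genes had 0 to 3 called higher, abscisic acid genes 0 to 2 and jasmonate genes 0 to 2, with 4 to 5 jasmonate genes called lower. Depth limits low genes most in ligule replicate 2, where 3 counts are 0.786 CPM.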
